A study of Homo sapiens with 2 samples.

Results

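Readthrough genes are annotated genes whose transcripts join exons of 2 neighbouring genes. By name, 24 of them reached 1 FPKM (fragments per kilobase of transcript, scaled to the fragments mapped in the library) in RNA-seq of live or processed cells. The names of 2 of the 24 are in doubt, as described below. The 24 were taken from the 55797 genes of each expression file by their hyphenated names. Such a name had to split into 2 names that are themselves rows on the same chromosome, with the loci within 1 Mb of each other. This found 56 rows, of which 2 lay in an interval of chromosome 6 that was left out and 30 stayed under 1 FPKM in both libraries. The 24 were therefore selected on their FPKM, in the same 2 libraries that are compared below: 16 reached 1 FPKM in both, 6 in live cells alone and 2 in processed cells alone, and a gene that passed through 1 library alone had to be lower in the other.

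When RNA polymerase II does not stop at the end of a gene, transcription can run on into the next gene on the same strand. Splicing can then link an exon of the upstream gene to an exon of the downstream gene and skip the space between them, which gives a chimeric mRNA that may encode a fusion protein, a truncated protein or no protein. Such transcripts share most of their exons with the 2 parental genes, here called the first-named and the second-named part, so a short read often fits the joined gene and a part equally well.

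Both libraries came from H1 cells, an established human embryonic stem cell line, taken through a stepwise pancreatic differentiation to Stage 6, where cultures hold insulin-expressing cells among other cells. Live cells were lysed fresh and their RNA purified with the RNeasy protocol. Processed cells were fixed in 4% paraformaldehyde, permeabilised, stained with antibodies and passed through a sorter that collected every cell, and their RNA was recovered with a modified RecoverAll kit. The comparison therefore asks how the fixing, staining and sorting procedure (MARIS) left the level of each transcript, and no cell type was selected by the sort. There was 1 library of each kind, so the differences below have no replicate check and no p-value. The lower and upper bounds printed with an FPKM are those of the authors' files and describe a single library. In such bulk RNA fewer cells of a type and less RNA per cell cannot be told apart.

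The culture label was checked against marker genes. All 10 pancreatic endocrine markers, among them INS, GCG and CHGA, reached 1 FPKM in both libraries, and they summed to 2393 FPKM in live and 2389 in processed cells. Markers of other cells were present too. The 4 pluripotency markers summed to 181 and 152 FPKM, the 4 mesenchymal markers to 563 and 524, the 3 liver markers to 799 and 956, and the 3 acinar markers, of which 2 reached 1 FPKM, to 19.9 and 22.8 in live and processed cells. LIN28A (119 and 88.7 FPKM) and SOX2 (52.4 and 47.1) made up most of the pluripotency sum, and VIM (514 and 485) most of the mesenchymal sum. The other pluripotency markers, NANOG (1.27 and 7.34) and POU5F1 (7.92 and 8.53), were higher in processed cells. None of the 4 blood markers reached 1 FPKM (sums of 0.461 and 0). Over the 14635 genes at 1 FPKM or more in both libraries processed FPKM was a median 0.932 times live FPKM, a shift of -0.10 on the log2 scale.

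The name of each row was compared with a later gene annotation (GENCODE 44 placed on GRCh37), which held 23 of the 24 identifiers and lacked that of IQCJ-SCHIP1. It gave the same symbol for 18 and a newer symbol for the same joined gene for 3 (ARPIN-AP3S2 for C15orf38-AP3S2, TVP23C-CDRT4 for FAM18B2-CDRT4 and STIMATE-MUSTN1 for TMEM110-MUSTN1). The other 2 went against their labels. The identifier of the row named NME1-NME2 is that of NME2 and the row named NME2 carries the identifier of NME1-NME2, and the names ZNF816-ZNF321P and ZNF321P are exchanged in the same way. These 2 rows are called the rows named NME1-NME2 and ZNF816-ZNF321P below, and the main counts and sums are given also without them or by identifier.

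All 3 genes of a locus lay on the same strand in the 23 loci found, with the first-named part upstream. In 20 of the 21 loci with neither exchanged names nor a missing entry, an annotated intron of the joined gene ran from an exon of the first-named part to an exon of the second-named part, with a median length of 16.0 kb (0.679 to 105.5 kb). The intron had to be absent from both parts, begin in an exon of the first-named part alone and end in an exon of the second-named part alone. ANKHD1-EIF4EBP3 had no intron that met these conditions, though 2 of its introns were in neither part. The 30 bases across such a joint are a stretch of RNA that tells a joined transcript from either parental one. They are shown here for 8 members whose levels the results turn on, read from the GRCh37 genome along the gene's strand. Where a gene had several joining introns, the one in the largest number of its annotated transcripts was taken (the shortest where several tied). It was in 3 of 4 annotated transcripts for SYS1-DBNDD2 and C15orf38-AP3S2, 3 of 5 for FAM18B2-CDRT4 and 2 of 3 for BCL2L2-PABPN1. It was in 1 of 1 for ISY1-RAB43, 2 of 4 for CHURC1-FNTB, 1 of 3 for CHKB-CPT1B and 1 of 4 for RBM14-RBM4. Lower case marks the last 15 bases of the upstream exon and capitals the first 15 bases of the downstream exon.
SYS1-DBNDD2: caacgccctcacctgGAGCTGACATGGACC
FAM18B2-CDRT4: acagtaaagtggctgGAATCTGAACCTGTG
ISY1-RAB43: cagaaggctcctgggCTGCAGATCTGGGAC
CHKB-CPT1B: tgttcctgagtttgaGTGCCGACCAACCCC
BCL2L2-PABPN1: agcagtgggggctggGAGCTGGAAGCTATC
C15orf38-AP3S2: gaggacgaggagtggCCAGAAGAAATTCAA
CHURC1-FNTB: tagttacctatgatcGCAAAAGTAGAAGAA
RBM14-RBM4: gtgacgtggtgaaagGCTCTTGTCAGGATG

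The introns removed at these joints were chr20:43994327-44037099 (plus strand) for SYS1-DBNDD2, chr17:15343600-15449098 (minus) for FAM18B2-CDRT4, chr3:128814013-128848930 (minus) for ISY1-RAB43, chr22:51016364-51017464 (minus) for CHKB-CPT1B, chr14:23777409-23791389 (plus) for BCL2L2-PABPN1, chr15:90432373-90446447 (minus) for C15orf38-AP3S2, chr14:65390845-65470966 (plus) for CHURC1-FNTB and chr11:66384529-66407170 (plus) for RBM14-RBM4. Of the 20 joining introns, 19 began with GT and ended with AG, the usual splice site bases. The donor site also ended an exon of the first-named part alone in 13, the acceptor site also opened an exon of the second-named part in 17, and both held in 11. The exception to GT and AG was PPAN-P2RY11, whose joining intron began with GC (chr19:10221761-10224308, plus), and its joint is shown in the same way.
PPAN-P2RY11: tcccagggagcccagGTGCCAAGTCCTGCC

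Of the 24 readthrough genes, 8 were more than 2-fold lower and 2 more than 2-fold higher in processed than in live cells on the scale of log2((processed FPKM + 1) / (live FPKM + 1)), which understates the difference of genes near 1 FPKM. All 10 also had bounds that did not overlap. The 8 lower genes were 33.3% of the members, beside 6.19% of the 17326 genes at 1 FPKM or more in at least 1 library, and the 2 higher genes were 8.33%, beside 6.57%. Because the members were selected on these FPKM values, the shares are descriptions and no test was made. All 6 members that reached 1 FPKM in live cells alone, and so had to be lower in processed cells, were among the 8. The median log2 ratio was -0.29 over the members and -0.09 over all 17326 genes, and the median absolute log2 ratio was 0.38 and 0.34 (0.33 for the 22 members without exchanged names). Bounds did not overlap in 16 of the 24 (66.7%, beside 71.8% of all genes). Under 0.001 FPKM in processed cells alone were 4 of the 24 (16.7%, beside 1.94% of all genes), and in live cells alone 0 of 24 (beside 1.29%). Without the 2 rows with exchanged names, 8 genes were more than 2-fold lower, 1 was more than 2-fold higher and 14 had bounds that did not overlap.

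Past 2-fold in either direction were 41.7% of the members and 12.8% of all genes, and genes of similar level or layout gave shares in between. Of the 12299 genes whose larger FPKM was between 1 and 20, 16.4% differed this much, and of the 6771 other genes whose locus overlaps another gene 16.6% did. The median absolute log2 ratio did not set the members apart from these groups: it was 0.41 for the genes between 1 and 20 FPKM as for the 22 members in that range, and 0.38 for the overlapping genes. Among the 16 members at 1 FPKM or more in both libraries, 2 were more than 2-fold lower and 1 was more than 2-fold higher, beside 2.30% and 2.91% of all such genes.

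**Figure D1:**
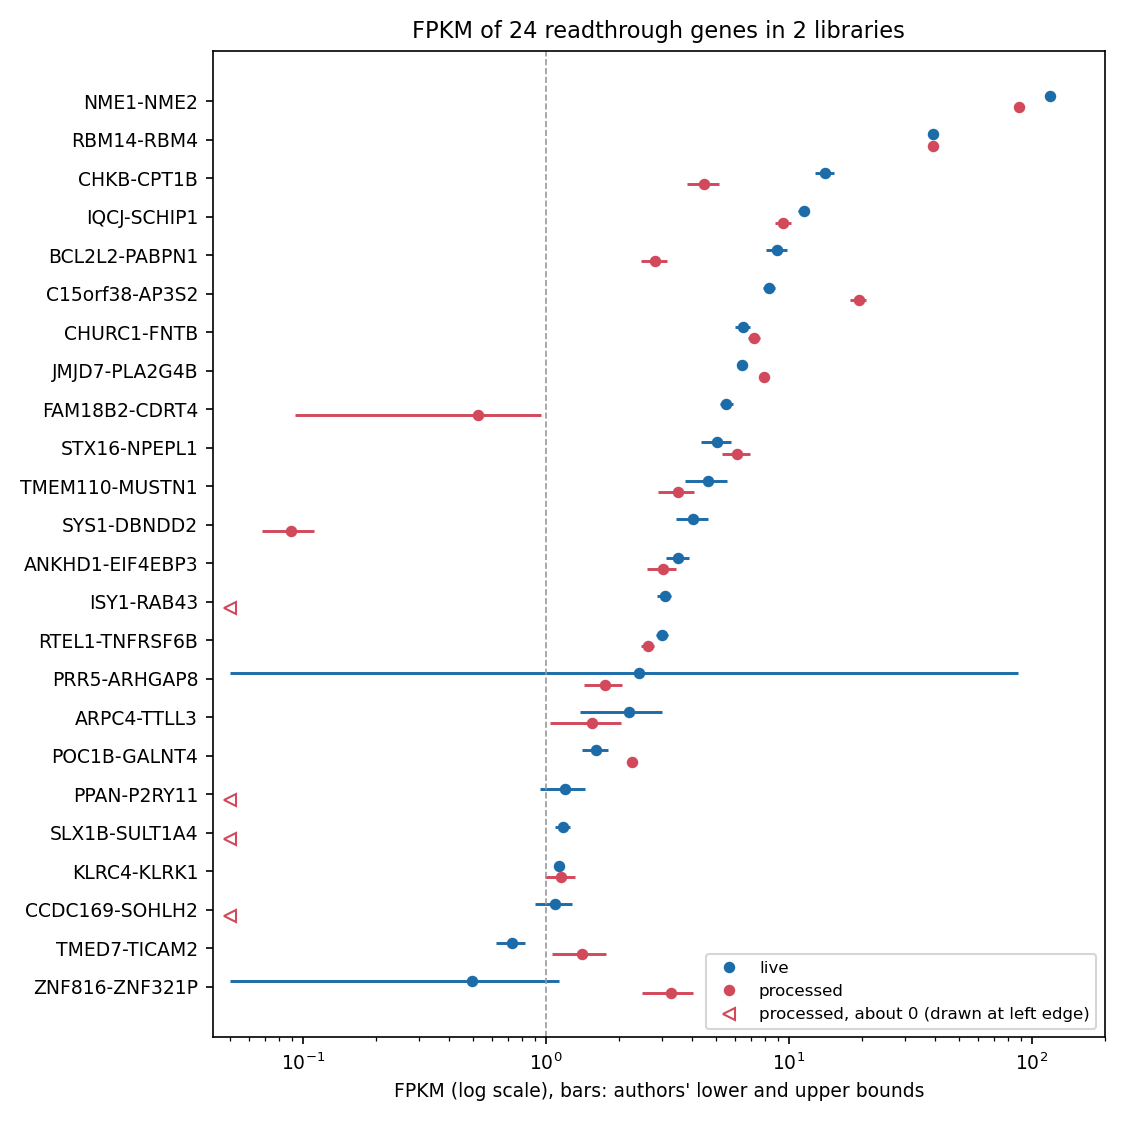
FPKM (log axis) of the 24 readthrough genes in live and in processed cells, ordered by the live value, with bars from the authors' lower to upper bound and a dashed line at 1 FPKM. Open triangles at the left edge stand for values that are about 0, and bars that reach the left edge have a lower bound under the axis. The row named NME1-NME2 leads with 118.5 and 88.5 FPKM, and 4 genes between 1.09 and 3.08 FPKM in live cells are at the left edge in processed cells.

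SYS1-DBNDD2, at chr20:43991840-44039250, had the largest difference on the scale with 1 FPKM added. With 0.1 FPKM added its log2 ratio was -4.45 and that of ISY1-RAB43, which was about 0 in processed cells, was -4.99. SYS1-DBNDD2 joins SYS1, a Golgi membrane protein, to DBNDD2, a dysbindin-domain protein, and measured 4.05 FPKM in live cells (bounds from 3.45 up to 4.65) and 0.0894 after processing (0.0675 to 0.111). This was 45.3-fold lower, with a log2 ratio of -2.21. SYS1 itself was at 11.0 and 9.42 FPKM and DBNDD2 at 9.64 and 13.1, so the summed FPKM of the 3 genes was 24.7 in live and 22.6 in processed cells.

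FAM18B2-CDRT4 (chr17:15339338-15466875) joins FAM18B2, a Golgi protein now called TVP23C, to CDRT4, a gene of the region duplicated in Charcot-Marie-Tooth disease type 1A. It was at 5.54 FPKM in live cells (5.21 to 5.87) and at 0.525 in processed cells (0.0930 to 0.958), 10.5-fold lower, with a log2 ratio of -2.10. In live cells it stood above both parts, and in processed cells below both. FAM18B2 was at 3.27 and 2.99 FPKM, while CDRT4 was at 5.39 in live and 11.8 in processed cells.

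The members that were about 0 in processed cells were ISY1-RAB43, PPAN-P2RY11, SLX1B-SULT1A4 and CCDC169-SOHLH2. ISY1-RAB43 (chr3:128806418-128879879) joins a spliceosome component to a small GTPase of the secretory pathway. Its FPKM was 3.08 in live cells (2.88 to 3.28) and under 0.001 in processed cells, with an upper bound of 0.00461. ISY1 was at 13.2 and 11.1 FPKM and RAB43 at 4.01 and 4.45. Both parts therefore stayed within 2-fold while the joined gene went from 15.2% of the summed FPKM of the locus to about 0.

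PPAN-P2RY11 (chr19:10216899-10225456) joins PPAN, a ribosome biogenesis factor, to P2RY11, a receptor for extracellular ATP. It measured 1.20 FPKM in live cells (0.942 to 1.45) and under 0.001 in processed cells, with an upper bound of 0.0133. PPAN was at 23.7 and 21.2 FPKM and P2RY11 at 3.52 and 7.25, the higher value in processed cells.

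CCDC169-SOHLH2 (chr13:36742931-36871979) runs into SOHLH2, a transcription factor known from germ cells. It was the member nearest to the threshold of 1 FPKM, at 1.09 in live cells (0.905 to 1.28) and under 0.001 in processed cells. CCDC169 was at 4.79 and 4.39 FPKM and SOHLH2 at 2.01 and 4.65.

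SLX1B-SULT1A4 (chr16:29466412-29476283) joins a DNA structure-specific endonuclease subunit to a sulfotransferase of phenols and catecholamines. It was at 1.17 FPKM in live cells (1.09 to 1.26) and under 0.001 in processed cells. Its values are uncertain, since the locus has a near-identical copy on the same chromosome. The copy genes shifted against each other between the libraries. SLX1A was at 19.0 and 10.7 FPKM, and the 2 rows named SULT1A3 were at 10.6 and 1.16 and at 4.52 and 24.6, in live and processed cells.

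At their live FPKM the 4 genes would have been expected at between 192 and 1348 fragments in the processed library, from the longest annotated transcript and the FPKM that 1 fragment is worth on a transcript of 1 effective kilobase (0.0100 in live and 0.0107 in processed cells). These are fragments over the whole transcript, most of which fit a part as well, so they do not say how many could tell the joined gene from its parts. How the estimation procedure divided fragments between a joined gene and its parts cannot be read from the files, and its part in these differences was not tested.

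CHKB-CPT1B and BCL2L2-PABPN1 were lower by about the same amount and remained well above 1 FPKM. CHKB-CPT1B (chr22:51007298-51021394) joins choline kinase beta, of phosphatidylcholine synthesis, to the muscle form of carnitine palmitoyltransferase, which admits fatty acids to mitochondria. It was at 14.1 FPKM (12.8 to 15.3) in live and 4.48 (3.82 to 5.14) in processed cells, 3.15-fold lower. CHKB was at 36.9 and 32 FPKM and CPT1B at 32.4 and 36.1.

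BCL2L2-PABPN1 (chr14:23776044-23794578) joins the survival factor BCL-w to the nuclear poly(A)-binding protein. It was at 8.95 FPKM (8.04 to 9.85) in live and 2.80 (2.47 to 3.14) in processed cells, 3.19-fold lower. PABPN1, at 151 and 157 FPKM, was the most abundant of all parts, and BCL2L2 was at 14 and 11.1. The joined gene was 5.15% and 1.64% of the summed FPKM.

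In all 8 lower genes the first-named part was lower and the second-named part higher in processed cells. The log2 ratios were -0.73 to -0.10 for the first-named and 0.06 to 1.0 for the second-named parts. Summed over the 8 loci, the joined genes had 39.2 FPKM in live and 7.89 in processed cells, the first-named parts 126 and 103, and the second-named parts 219 and 252. The 8 were picked as lower, so the fall in the joined sum follows from that choice. Of the 8, 6 had become members through live cells alone. CHKB-CPT1B and BCL2L2-PABPN1 reached 1 FPKM in both libraries. The summed FPKM of a whole locus differed by at most 0.36 on the log2 scale. Over the 8 loci the joined genes were the smallest of the 3 sums.

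**Figure D2:**
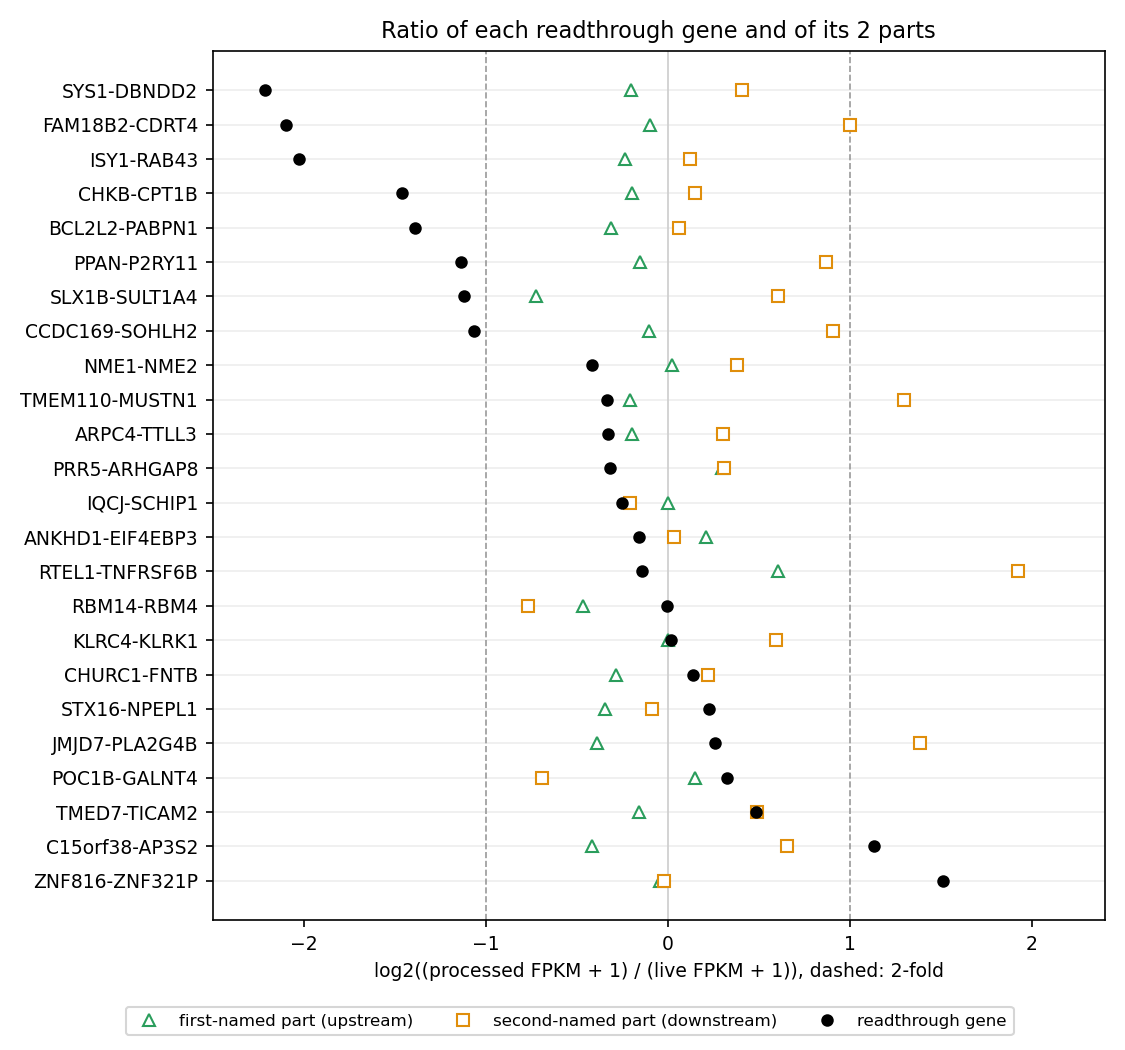
Log2 ratio of processed to live FPKM, each plus 1, for the 24 readthrough genes (filled circles) and their first-named (triangles) and second-named (squares) parts, 1 locus per line, with dashed lines at 2-fold. In the 8 loci at the top the circle lies left of -1, the triangle between -0.73 and -0.10 and the square between 0.06 and 1.0.

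C15orf38-AP3S2 was the 1 member with an undisputed name that was more than 2-fold higher in processed cells. It joins C15orf38 (ARPIN), an inhibitor of the Arp2/3 actin nucleator, to AP3S2, a subunit of the AP-3 vesicle coat adaptor (chr15:90377540-90456114). It was at 8.29 FPKM (7.83 to 8.74) in live and 19.4 (17.9 to 20.9) in processed cells, 2.34-fold higher, with a log2 ratio of 1.13. AP3S2 was at 10.2 and 16.5 FPKM and C15orf38 at 3.07 and 2.05. The summed FPKM of this locus went from 21.5 in live to 38.0 in processed cells, the largest difference of the 24 loci (log2 ratio 0.79). The joined gene passed from below AP3S2 in live cells to above both parts in processed cells.

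The row named ZNF816-ZNF321P (chr19:53430388-53445854) was at 0.498 FPKM in live cells (0 to 1.13) and 3.26 in processed cells (2.48 to 4.05), 6.56-fold higher. ZNF816, a KRAB zinc finger gene, was at 8.75 and 8.45 FPKM. The row named ZNF321P, which carries the identifier of the joined gene, was at 0.0159 FPKM in live cells and about 0 in processed cells. By identifier, then, the higher row is the ZNF321P locus and the joined gene was close to 0 in both libraries.

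The row named NME1-NME2 (chr17:49242796-49249108) was the most abundant, at 118.5 FPKM (115.5 to 121.6) in live and 88.5 (85.2 to 91.8) in processed cells. Its locus does not overlap that of NME1 (chr17:49230897-49239789), while the row named NME2 spans chr17:49230951-49249105. Both parts are nucleoside diphosphate kinases, which balance the cell's nucleotide triphosphates. NME1 was at 55.8 and 56.7 FPKM and the row named NME2, which by identifier is the joined gene, at 68.3 and 89.2. By identifier the joined gene was therefore lower than NME2 in live cells and at about the same level in processed cells. Read by name, the order is the reverse in live cells.

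RBM14-RBM4 joins a pair of RNA-binding proteins that act in transcription and splicing (chr11:66384097-66413940). It was at 39.2 FPKM (38.0 to 40.4) in live and 39.1 (37.9 to 40.3) in processed cells, and its bounds overlapped. Its parts were lower in processed cells, RBM14 at 30.6 and 21.9 FPKM and RBM4 at 55.3 and 32.1. The joined gene stood between its parts in live cells and above both in processed cells.

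IQCJ-SCHIP1 (chr3:158680024-159615155) was at 11.5 FPKM (10.9 to 12.1) in live and 9.49 (8.77 to 10.2) in processed cells. Its second part SCHIP1, which binds the tumour suppressor merlin, was at 6.74 and 5.71 FPKM, and IQCJ was listed at 0 in both libraries. Its 2 parts lay 574 kb apart.

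Several well expressed members differed by less than 2-fold while a part did not. JMJD7-PLA2G4B, a jumonji-domain hydroxylase joined to a cytosolic phospholipase A2, was at 6.43 and 7.90 FPKM, with JMJD7 at 4.33 and 3.06 and PLA2G4B at 1.04 and 4.32. TMEM110-MUSTN1, a regulator of calcium entry joined to a musculoskeletal gene, was at 4.67 and 3.49, with MUSTN1 at 3.27 and 9.50. RTEL1-TNFRSF6B, a telomere helicase joined to a decoy receptor for Fas ligand, was at 3.01 and 2.63, with TNFRSF6B at about 0 and at 2.79 (bounds 0 to 7.53). Of the 48 part rows, 4 exceeded their live level more than 2-fold (CDRT4, PLA2G4B, MUSTN1 and TNFRSF6B, each the second-named part) and 0 were more than 2-fold lower. This stands beside 6.57% higher and 6.19% lower of the 17326 genes at 1 FPKM or more in at least 1 library. The part rows did not have to meet that limit. The TNFRSF6B estimate was marked as low data in both libraries. The identifier of the MUSTN1 row carried no symbol in the later annotation.

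CHURC1-FNTB joins a zinc finger factor to the beta subunit of farnesyltransferase, which attaches the lipid anchor of Ras proteins. It was at 6.46 and 7.20 FPKM with overlapping bounds, CHURC1 at 15.3 and 12.4 and FNTB at 6.92 and 8.24. STX16-NPEPL1, a trans-Golgi SNARE joined to an aminopeptidase-like gene, was at 5.08 and 6.11 FPKM, also with overlapping bounds. ANKHD1-EIF4EBP3 was at 3.50 and 3.03 FPKM, far under ANKHD1 at 34.8 and 40.5, and above EIF4EBP3, an inhibitor of cap-dependent translation, at 0.609 and 0.648.

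Members with an abundant part took a small portion of their locus. ARPC4-TTLL3, an Arp2/3 subunit joined to a tubulin-modifying ligase, was at 2.2 and 1.55 FPKM beside ARPC4 at 85.1 and 74.1. PRR5-ARHGAP8, which starts in a component of mTORC2, was at 2.42 and 1.74 beside ARHGAP8 at 42.7 and 53.2. Its live estimate and those of both its parts were marked as failed in the file. The live bounds were 0 to 87.7 for the joined gene, 0 to 16.3 for PRR5 and 0 to 332.5 for ARHGAP8. The live values of this locus are therefore uncertain. TMED7-TICAM2, a cargo receptor of the early secretory pathway joined to an adaptor of Toll-like receptor 4, was at 0.722 and 1.41 FPKM beside TMED7 at 23.1 and 20.6, while TICAM2 was at 0.00569 and 0.414.

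POC1B-GALNT4, a centriole protein joined to an enzyme that starts mucin-type glycosylation, was at 1.61 and 2.27 FPKM. POC1B was at 7.53 and 8.44 and GALNT4 at 2.53 (bounds 0 to 5.87) and 1.18 (0 to 3.49). The GALNT4 estimate was marked as low data in both libraries, so its direction is uncertain. By these estimates this was the 1 locus in which the first-named part was higher and the second-named part lower. KLRC4-KLRK1 belongs to the natural killer receptor cluster and was at 1.13 and 1.15 FPKM, with KLRC4 at about 0 in both libraries and KLRK1 (NKG2D) at 0.0368 and 0.565. No blood marker reached 1 FPKM beside it.

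Over all 24 loci the parts differed by position. The first-named part was lower in processed cells in 17 loci and higher in 5, with a median log2 ratio of -0.18. IQCJ and KLRC4, at about 0 in both libraries, count as neither. The second-named part was higher in 19 and lower in 5, with a median of 0.35. Over all 17326 genes, 41.7% were higher in processed cells and the median log2 ratio was -0.09. The median of the first-named parts lay closer to that value than the median of the second-named parts. Both patterns occurred together, first-named part lower and second-named part higher, in 14 loci. Without the rows with exchanged names the first-named part was lower in 16 of 22 loci and the second-named part higher in 18. Scaling the processed library so that the median of all genes matched left 16 first-named parts lower and 20 second-named parts higher, and left 8 joined genes more than 2-fold lower and 2 more than 2-fold higher. RBM14-RBM4 was the 1 member whose sign turned under that scaling.

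The joined gene moved opposite to the sum of its parts in 15 of the 24 loci, 6 of them among the 10 past 2-fold, and in 13 of the 22 loci without exchanged names. On the scale with 1 FPKM added, the sum of both parts and the sum of all 3 genes differed by less than 2-fold in 24 of 24 loci. Their median absolute log2 ratios were 0.21 and 0.18. Of all 17326 genes taken singly, 12.8% were past 2-fold, with a median of 0.34. The joined gene was a median 15.8% of the sum of 3 genes in live cells. At such a share, a change in the joined gene alone moves the sum little.

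**Figure D3:**
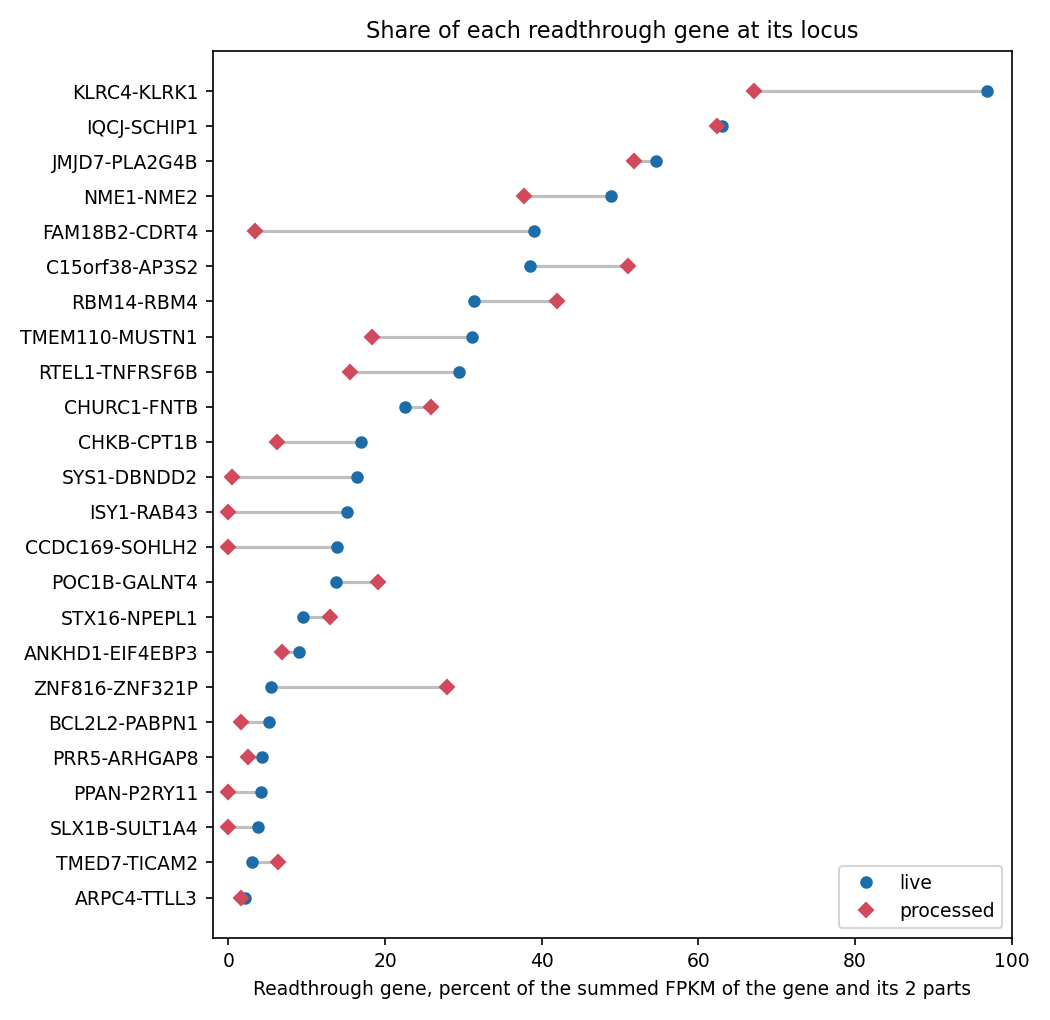
Share of the readthrough gene in the summed FPKM of the gene and its 2 parts, in percent, in live (circles) and processed (diamonds) cells, ordered by the live share. The share is lower in processed cells in 17 loci and higher in 7, and 4 diamonds lie at about 0.

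FPKM is per length, so levels of different genes are set side by side here. A joined gene shares most exon bases with its parts, and how fragments were divided between them is not known. The levels and shares below depend on that division. The joined gene was below both parts in 12 of 24 loci in live and 14 in processed cells, and above both in 5 loci in each library. Without the rows with exchanged names it was below both in 12 and 14 of 22 loci, and above both in 4 in live and 5 in processed cells. The median level was 3.78 FPKM for joined genes and 9.19 for parts in live cells, and 2.72 and 11.1 in processed cells. The median share of the summed FPKM was 15.8% in live and 9.95% in processed cells, and the share was lower in processed cells in 17 loci. These medians depend on the FPKM limit: with 5 FPKM required in at least 1 library they were 34.9% and 31.8%, and with no limit 3.73% and 0.327%. Without the rows with exchanged names the processed median was 6.58% and the share was lower in 16 of 22 loci. Summed by name over all 24 loci the joined genes had 254 FPKM in live and 206 in processed cells, of which the row named NME1-NME2 and RBM14-RBM4 gave 158 and 128. With the 2 exchanged names read by identifier the sums were 204 and 204, and NME1-NME2 and RBM14-RBM4 gave 107 and 128. Without both rows the remaining 22 genes summed to 135 and 114 FPKM.

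The largest live shares were 96.9% for KLRC4-KLRK1, 63.0% for IQCJ-SCHIP1, 54.5% for JMJD7-PLA2G4B, 48.9% for the row named NME1-NME2 and 39.0% for FAM18B2-CDRT4. In processed cells these were 67.1%, 62.4%, 51.7%, 37.8% and 3.43%. By identifier the share of NME1-NME2 was 28.1% in live and 38.1% in processed cells, higher in processed cells and no longer among the 5 largest live shares. The smallest live shares were 2.13% for ARPC4-TTLL3, 3.03% for TMED7-TICAM2, 3.73% for SLX1B-SULT1A4, 4.21% for PPAN-P2RY11 and 4.29% for PRR5-ARHGAP8. All live estimates behind that last share were marked as failed. The share of C15orf38-AP3S2 was 38.5% in live and 51.1% in processed cells.

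Most exon bases of the joined genes also belonged to a part. In the 21 loci with undisputed names and an entry in the later annotation, the median share of exon bases in neither part was 6.55%, between 0 and 37.7%. CHURC1-FNTB and ISY1-RAB43 had 0 such bases, C15orf38-AP3S2 had 1 and CCDC169-SOHLH2 had 2, so little beyond splice joints tells them from their parts. In the same order they had 3, 1, 2 and 1 annotated joining introns, and 1 joint each is shown above for 3 of these 4. RTEL1-TNFRSF6B had the largest share of own bases (37.7%), followed by JMJD7-PLA2G4B (37.2%). The joined gene began within 1000 bases of the start of the first-named part in 15 of these 21 loci and ended within 1000 bases of the end of the second-named part in 16.

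Of the 12 members with under 10% own exon bases, 7 differed more than 2-fold between the libraries (6 lower, 1 higher), with a median absolute log2 ratio of 1.10. Of the 9 members with 10% or more, 2 did (both lower), with a median of 0.26. This limit was set after the values were seen and the difference was not tested. CHURC1-FNTB, with 0 own bases, and ARPC4-TTLL3, with 0.253%, were members of the first group that stayed within 2-fold.

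**Figure D4:**
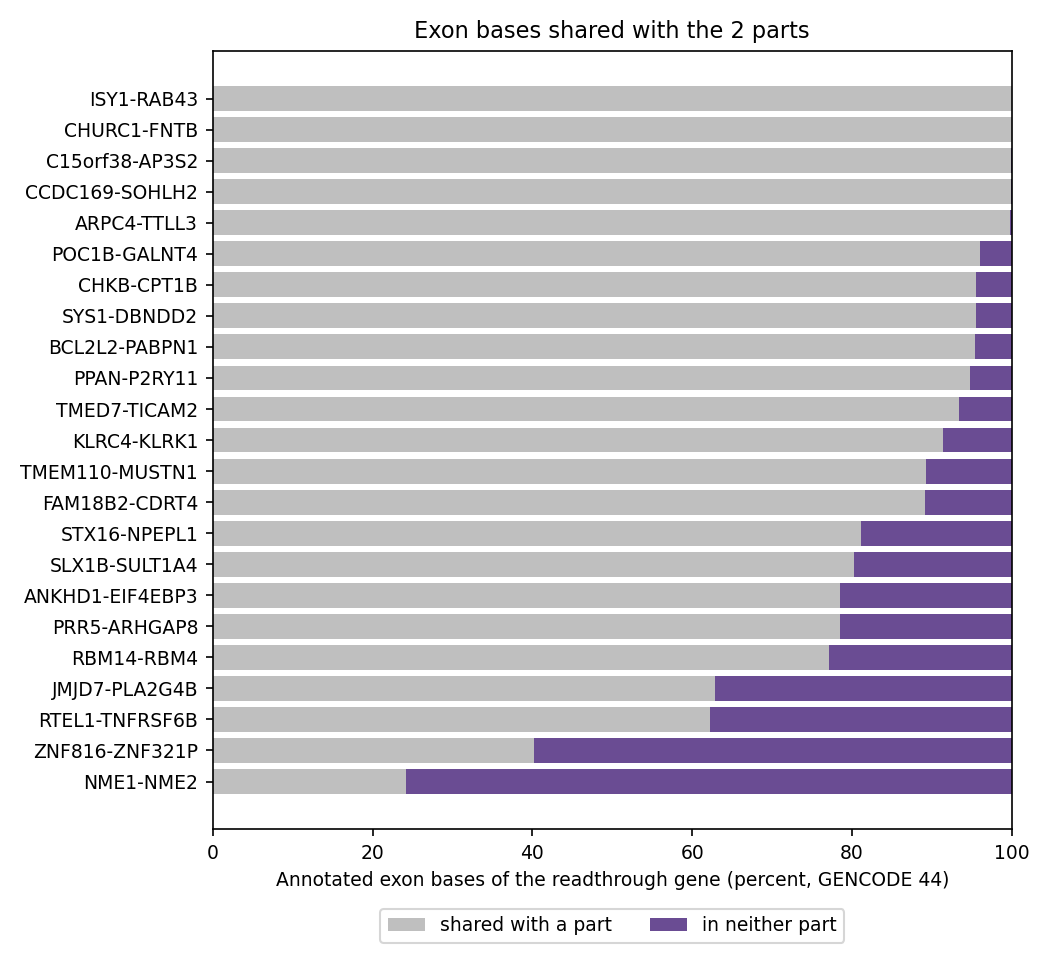
Annotated exon bases of 23 readthrough genes, in percent, split into bases shared with a part (grey) and bases in neither part (purple), ordered by the purple portion. It runs from 0 for ISY1-RAB43 and CHURC1-FNTB to 37.7% for RTEL1-TNFRSF6B, and the rows named ZNF816-ZNF321P and NME1-NME2, whose identifiers belong to the second part, stand at 59.8% and 75.8%.

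The other 30 readthrough rows stayed under 1 FPKM, up to 0.901 in live and 0.523 in processed cells. Just inside the threshold, by the larger of their values, were CCDC169-SOHLH2 at 1.09 and KLRC4-KLRK1 at 1.15, and just outside were APITD1-CORT at 0.901 in live and 0.221 in processed cells and DYX1C1-CCPG1 at 0.759 and 0.0428. Both parts were at 1 FPKM or more in live cells in 19 of the 30 loci, and in 18 of the 24 loci of the members. Of the 30 rows, 23 were lower and 6 higher in processed cells, 1 was listed at 0 in both, and none was past 2-fold on the scale with 1 FPKM added. Under 0.001 FPKM were 5 in live and 15 in processed cells, 11 of them in processed cells alone and 1 in live cells alone. Low genes in general were lower in processed cells. Of the 6164 genes whose larger FPKM was from 0.1 to under 1, 68.1% were lower there, 34% were under 0.001 FPKM in processed cells alone and 6.1% in live cells alone. Of the 18 readthrough rows in that range, 14 were lower, 9 were under 0.001 FPKM in processed cells and 0 in live cells.

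INS-IGF2, which joins the insulin gene to insulin-like growth factor 2, was among these low rows. It was under 0.001 FPKM in both libraries, although INS was at 98.3 and 121 FPKM and IGF2 at 1201 and 1135. TNFSF12-TNFSF13, which joins the cytokines TWEAK and APRIL, was at 0.0576 and 0.00121 FPKM with both parts between 1.71 and 3.10. NDUFC2-KCTD14, which starts in a subunit of respiratory complex I, was at 0.445 and under 0.001 FPKM, beside NDUFC2 at 97.2 and 102. ABHD14A-ACY1 was at 0.328 and under 0.001, beside ACY1, an aminoacylase, at 8.02 and 9.60. TMEM189-UBE2V1, which runs into a ubiquitin-conjugating enzyme variant, was at 0.0794 and 0.303, the higher value in processed cells. MSANTD3-TMEFF1 was at 0.0990 and 0.115, BLOC1S5-TXNDC5 at 0.0293 in both, and RNF103-CHMP3 at 0.0149 and about 0.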

How the data were processed

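RNA-seq was analysed from 1 live and 1 processed (MARIS) library of H1-derived Stage 6 cells. Per the labels and the study's methods, the authors selected polyadenylated RNA, sequenced paired reads of 80 nt, aligned them with STAR 2.2.0c to hg19 (GRCh37) and estimated FPKM per gene of GENCODE 14 with Cufflinks 2.0.2. The deposited files hold FPKM, its lower and upper bound (level not stated) and a status for each gene. FPKM was not a count, and total reads were not given there, so depth was estimated from the smallest steps of FPKM × (transcript length - 170 nt, the effective length).

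Rows were joined by gene identifier. Members needed 1 FPKM in at least 1 library, and "about 0" means under 0.001 FPKM. Log2 ratios used a pseudocount of 1. With 1 library per group no test was run. Members and lists were chosen with earlier results of these data known. Members of at least 10 FPKM, the 5 largest and 5 smallest log2 ratios and live shares, and a list of 24 well known readthrough genes (17 in the files, 9 of them members) were to be named, with their parts. The rest of the members were added. The interval of chromosome 6 is not reported here.

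Exon overlap, joining introns and joint sequences came from the GRCh37 genome and GENCODE 44 placed on it, a later release than that of the files. The scripts used Python 3.11.15 with pandas 2.3.3, numpy 2.4.6 and matplotlib 3.10.9 and were tested on simulated data. Alternatives were a pseudocount of 0.1, other FPKM limits, both scalings of the processed values, status, distance and overlap limits and, added after seeing the data, the rows with exchanged names left out or exchanged.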

Additional observations from a re-analysis of the deposited data

How the results depend on the processing

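Of 99 values recomputed under 11 alternatives, 73 moved by less than the tolerance and 26 by more. The tolerance was 1.5 times for counts and the half-width of the authors' bounds for medians. Counts and shares have no sign that could turn. The median log2 ratio has one, and it stayed below 0 under every alternative. Most of the 26 larger moves came from the FPKM limit, which sets how many genes are kept. With 1 FPKM required in both libraries 16 genes remained: 2 more than 2-fold lower (8 in the report), 1 higher (2), 9 opposite to the sum of their parts (15) and 8 with separate bounds (16), with a median log2 ratio of -0.15 (-0.29) and median shares of 26.0% live (15.8%) and 18.7% processed (9.95%). With 5 FPKM in at least 1 library 10 genes remained, 3 lower, 1 higher, 5 opposite and 7 with separate bounds, with a median log2 ratio of -0.13 and shares of 34.9% and 31.8%. With no limit 53 genes remained, 28 opposite and 33 with separate bounds, with a median log2 ratio of -0.16 and shares of 3.73% and 0.327%. Leaving out the 2 rows with exchanged names, or exchanging them, gave 1 higher gene each and a processed share of 6.58% and 6.87%. The processed share was also 6.87% with status OK only, with parts within 100 kb and with overlap of both parts required. Of all genes at 1 FPKM or more in both libraries, 2.30% were more than 2-fold lower and 2.91% higher. With 5 FPKM in at least 1 library these shares of all genes were 2.98% and 4.20%, and with no limit 3.50% and 3.72%. The share of all genes with separate bounds was not computed for these limits. A pseudocount of 0.1 raised the background to 9.90% of all genes higher and 10.1% lower. No paired analysis was possible because each group has 1 sample, and for the same reason no library could be left out. In the processed library 1 fragment is worth 0.0107 FPKM on a transcript of 1 effective kilobase, which sets the limit from depth. The error from dividing fragments among overlapping genes has no measured size here.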
